A study of Homo sapiens with 18 samples.

Results

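UBR7 and 5 other genes whose proteins carry a UBR box, UBR1, UBR2, UBR4, UBR3 and FBXO11, were followed by RNA level, open chromatin and GFP-UBR7 peaks in HEK293T cells, a human embryonic kidney line in long-term culture. The members were the 6 rows of the deposited RNA table with these gene names, of 14177 rows in all, and each of the 6 was among the 13697 genes tested. The RNA libraries came from parental cells (parental 1, 2 and 3) and from cells in which UBR7 was knocked out with CRISPR-Cas9 (UBR7KO), where the line named UBR7KO1 gave 2 libraries (KO1-1 and KO1-2) and the line named UBR7KO2 gave 1 (KO2-1). ATAC-seq, in which a transposase cuts accessible DNA, was made from 2 parental and 2 UBR7KO libraries. ChIP-seq with an anti-GFP antibody was made once, with its input, from cells with GFP fused to UBR7 at its endogenous locus (GFP-UBR7), and 6 CUT&RUN samples were not analysed here. All cells were HEK293T in the same medium with fetal bovine serum, and the labels do not say whether a line is 1 clone, where the UBR7 gene was cut or whether libraries of one genotype came from separate cultures. The p-values therefore measure the spread between these libraries, which may be technical. A number code that reads as a date is shared by parental 1 and KO1-1 (here date A) and by parental 2 and KO1-2 (date B). Parental 3 and KO2-1 carry no such code and form the remaining pair, called undated.

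The UBR box is a small zinc-binding fold. In UBR1, UBR2 and UBR4 it reads destabilising residues at the start of a protein, and these large proteins mark what they bind with ubiquitin for breakdown, a route called the N-degron pathway. UBR3 and FBXO11 carry the fold without a known part in reading such residues: UBR3 is a ubiquitin ligase, and FBXO11 is the F-box subunit that brings substrates to the SCF ubiquitin ligase. UBR7 joins the UBR box to a PHD finger, a fold that reads histone tails, it has been reported to ubiquitinate histone H2B, and the title of the series names it as a chaperone of histone H3.

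Sequence just before the RefSeq start is shown for the 3 genes on which the peak data below turn. These are UBR7, the targeted gene, and FBXO11 and UBR3. The last 2 alone among the 6 members had a GFP-UBR7 peak within 1 kb of the start in the authors' annotation. The RefSeq and annotated starts were not matched, so they may differ for a gene. RefSeq promoters (GRCh38.p14) matched 5 of the 6 members, and UBR2 was not among them. The stretch printed is 190 bases, the distance between the RefSeq starts of UBR7 and of GON7, which is transcribed the other way. It is read 5′ to 3′ on the strand of the gene and ends at the base before the start, with 3 motifs in capitals on either strand: the CCAAT box (CCAAT), the GC box (GGGCGG) and the ETS core (CCGGAA).
UBR7, chr14:93207066-93207255, plus strand: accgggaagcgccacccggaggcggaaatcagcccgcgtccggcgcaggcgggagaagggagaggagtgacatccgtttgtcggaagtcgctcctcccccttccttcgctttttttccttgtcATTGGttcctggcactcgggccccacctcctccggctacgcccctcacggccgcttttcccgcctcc
FBXO11, chr2:47906499-47906688, minus strand: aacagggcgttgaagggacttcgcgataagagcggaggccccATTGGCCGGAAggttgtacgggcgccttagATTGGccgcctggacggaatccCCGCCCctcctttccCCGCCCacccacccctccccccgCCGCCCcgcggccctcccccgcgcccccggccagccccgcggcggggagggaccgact
UBR3, chr2:169827264-169827453, plus strand: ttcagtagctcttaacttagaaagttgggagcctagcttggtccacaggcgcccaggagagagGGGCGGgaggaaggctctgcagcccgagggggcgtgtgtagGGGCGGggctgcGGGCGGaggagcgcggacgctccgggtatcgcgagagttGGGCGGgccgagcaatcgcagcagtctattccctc

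The 3 stretches differ in these letters. UBR7 has 1 CCAAT match, whose first base lies 67 bases before the start, and no GC box or ETS core match. FBXO11 has 2 CCAAT matches, 3 GC boxes and 1 ETS core, and its CCAAT match farther from the start is directly followed by the ETS core, with no shared base. UBR3 has 4 GC boxes and neither of the other motifs. Of 35116 RefSeq promoters of the same length, 27.0% hold the CCAAT letters, 39.6% the GC box and 12.6% the ETS core. The G and C share was 65.8% for UBR7 and UBR3 and 74.2% for FBXO11, against a median of 58.9% over all of these promoters. A lncRNA locus also overlaps the FBXO11 stretch in RefSeq.

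The RNA libraries held 22153291 to 29141652 counted reads in parental cells and 25487348 to 29811908 in UBR7KO cells. All 7 HEK293 lineage markers had rows in the table, while the markers of mature kidney epithelium (5 genes), keratinocytes (4) and blood (4) had none. Of 5 fibroblast markers, COL1A1, COL3A1 and LUM had rows, and DCN and PDGFRB did not. Their summed level was 14.2 to 21.3 CPM (counted reads scaled to a common library total) in parental libraries and 7.35 to 15.0 CPM in UBR7KO libraries, and values of single markers stand beside the UBR7 comparison they move with.

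UBR7 RNA was lower in both KO1 libraries and at the parental level in the library labelled KO2-1. UBR7 (ENSG00000012963) lies at chr14:93673401-93695561 on the plus strand in the coordinates of the deposited table, which are not those of GRCh38 and are of the type of hg19, a build named in the submitters' processing notes; all positions from here on are in these coordinates. Its level was 55.0, 62.2 and 62.2 CPM in parental 1, 2 and 3, 27.0 CPM in KO1-1, 26.3 CPM in KO1-2 and 64.5 CPM in the library labelled KO2-1. The order of the libraries was thus the 2 KO1 libraries, then the 3 parental libraries, then KO2-1. The step from the KO1 libraries to the lowest parental library, 27.0 to 55.0 CPM, is wider than the spread within either set, while KO2-1 lies above the highest parental library by less than the parental SD (59.8 ± 4.16 CPM, n = 3). These levels rest on 671 to 1923 reads, and the 95% Wilson interval for counting error alone is 61.7 to 67.5 CPM in KO2-1 and 25.1 to 29.1 CPM in KO1-1. Read counts over a whole gene do not show whether a transcript carries a short edit, so the RNA level checks the labels only in part.

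**Figure D1:**
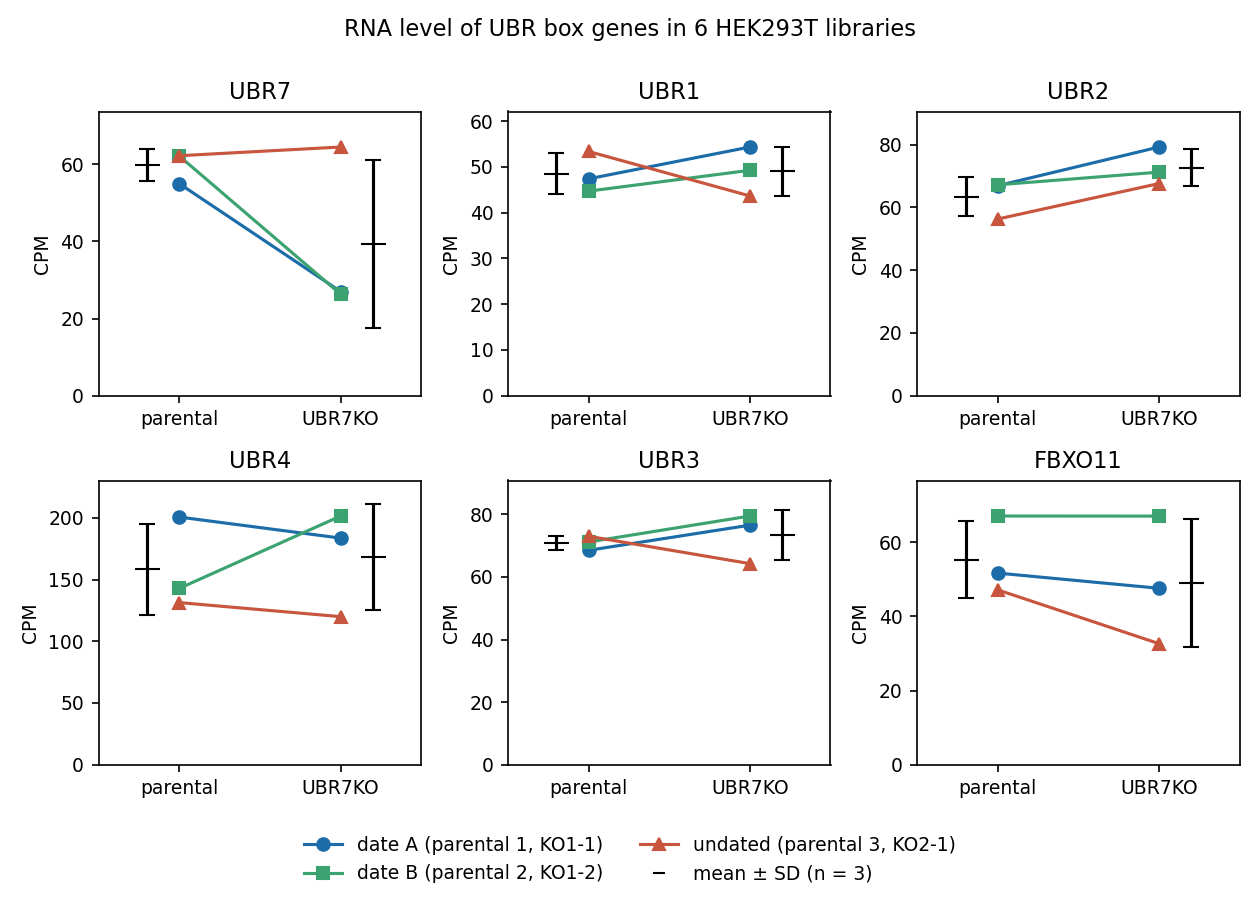
RNA level (CPM, linear axis from 0) of the 6 genes in parental and UBR7KO libraries, with the 2 libraries of a pair joined by a line and the mean ± SD of each genotype (n = 3) in black. UBR7 drops to 27.0 and 26.3 CPM in the 2 KO1 libraries and stands at 64.5 CPM in the library labelled KO2-1.

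Within pairs, the log2 ratio of UBR7 (on CPM + 1, as all ratios here) was -0.999 at date A, -1.21 at date B and 0.05 in the undated pair. In linear terms KO1 held 0.455 times the mean CPM of its date-matched parental libraries, so about 26.7 CPM remained. At date A 103 of the 13697 tested genes had a ratio as low as that of UBR7 or lower, and at date B 26 did. In all, 24 genes, 0.175% of those tested, were lower by at least 1 log2 unit in both dated pairs, and 13 of these 24 were not lower in the undated pair. UBR7, at -0.999 at date A, lies just outside that set.

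Over all 6 libraries UBR7 was not called. Its fitted change was -0.72 ± 0.33 (SE) on the log2 scale (limma, Benjamini-Hochberg adjusted p = 1.0), an exact two-sided permutation test of its CPM gave p = 0.4 where 3 against 3 libraries cannot go below 0.1, and the change was -1.13 without KO2-1. No member was called among the 6, against a background of 0.00% of all tested genes: limma called 0 genes, and before adjustment 23 genes were higher and 47 lower with p under 0.05. As for other tools, edgeR's quasi-likelihood test on recovered reads called 0 genes and DESeq2 called 7 (0.0511%), none of them a member. The authors' deposited table gives UBR7 a log2 fold change of -0.59 with an adjusted p of 1.0.

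In the 4 dated libraries the UBR7 call depended on the date as a block. Without the block limma gave -1.10 ± 0.20 (SE) with an adjusted p of 1.0 and called 0 genes, while before adjustment 116 were higher and 102 lower with p under 0.05. edgeR's quasi-likelihood test called 0 and DESeq2 24 (0.175%), none of them a member. With the date as a block UBR7 fell by 1.10 (limma, SE 0.13, adjusted p = 1.556e-05, lower in 2 of 2 pairs). That fit called 1 of the 6 members, against 3.58% of all tested genes (491 genes, 305 higher and 186 lower, the latter 1.36%); edgeR's quasi-likelihood test with the block called 482, 238 higher and 244 lower. The fit leaves 1 residual degree of freedom, and the prior on the spread comes from all genes.

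The UBR7 change in the undated pair minus that in the dated pairs was 1.15 ± 0.22 on the log2 scale (SE, limma with the pair as a block, adjusted p = 0.00176). The fit has 1 residual degree of freedom, which comes from the dated pairs, and a prior on the spread from all genes, so the undated pair is assumed to vary as they do and gives no spread of its own. Among the 6 members UBR7 was the only one called in this comparison, where 5.03% of all tested genes were called (234 higher, or 1.71%, and 455 lower; 348 higher and 424 lower after scaling by DESeq2 size factors). The KO2 side rests on 1 library, and line, pair and library cannot be told apart. Marker genes also differed in this comparison: 4 of the 7 HEK293 lineage markers were called, 3 lower (among them VIM, -1.04) and 1 higher (INA, 1.04), and 2 of the 3 fibroblast markers were called lower (COL3A1, -2.69, and LUM, -1.87; limma). In the dated pairs with the block VIM (0.56) and LUM (0.85) were called higher. Their part in the UBR7 values was not tested.

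None of the 3 N-degron readers was called in any comparison. UBR1 (ENSG00000159459, chr15:43235095-43398311, minus strand) was at 47.4, 44.7 and 53.4 CPM in parental 1, 2 and 3, and at 54.3, 49.2 and 43.6 CPM in KO1-1, KO1-2 and KO2-1. The groups overlap, and the 2 KO1 libraries lie above their date-matched parental libraries while KO2-1 lies below its partner. The ratios were 0.19 and 0.14 at dates A and B and -0.28 in the undated pair.

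UBR2 (ENSG00000024048, chr6:42531800-42661242, plus strand), which is known for its part in the male germ line as well as for reading N-degrons, was higher in the UBR7KO library of all 3 pairs. Its level was 66.9, 67.2 and 56.3 CPM in parental 1, 2 and 3 and 79.3, 71.3 and 67.6 CPM in KO1-1, KO1-2 and KO2-1. The groups do not overlap, by a margin of 67.2 to 67.6 CPM, which 1.25% of all tested genes also showed in this direction. The exact two-sided permutation p was 0.1, the smallest that 3 against 3 allows, and the fitted change of 0.19 ± 0.19 (SE) was not called (limma, adjusted p = 1.0). Neither test uses the pairs. With the pair as a block the change was 0.19 ± 0.11 (SE) and was not called either (limma, adjusted p = 0.88).

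UBR4 (ENSG00000127481, chr1:19401000-19536770, minus strand), a very large protein that also binds calmodulin, spread widely within each genotype. It stood at 200.7, 142.9 and 131.4 CPM in parental 1, 2 and 3, and at 183.6, 201.5 and 120.0 CPM in KO1-1, KO1-2 and KO2-1. The parental libraries alone span 0.61 log2 units, more than the largest change within a pair, 0.49 at date B. The 2 other pairs went the other way, with ratios of -0.13 at date A and -0.13 in the undated pair.

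UBR3, which has been reported to ubiquitinate the DNA repair enzyme APEX1, had the most even parental levels of the 6 genes. UBR3 (ENSG00000144357, chr2:170683968-170940641, plus strand) was at 68.5, 71.2 and 73.0 CPM in parental 1, 2 and 3, and at 76.6, 79.5 and 64.3 CPM in KO1-1, KO1-2 and KO2-1. The KO1 libraries were above every parental library and KO2-1 below every one. The ratios were 0.16 at both dates and -0.18 in the undated pair, and the difference between the lines, -0.34 ± 0.21 (SE), was not called (limma, adjusted p = 0.44).

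FBXO11 (ENSG00000138081, chr2:48016455-48132932, minus strand) was at 51.7, 67.1 and 47.1 CPM in parental 1, 2 and 3 and at 47.6, 67.1 and 32.6 CPM in KO1-1, KO1-2 and KO2-1. KO2-1 is the lowest of the 6 libraries, and the date B pair is the highest in both genotypes. Its ratio was -0.12 at date A, -0.00053 at date B and -0.52 in the undated pair, where 6.16% of tested genes had a lower one. The difference between the lines was -0.46 ± 0.22 (SE) and was not called (limma, adjusted p = 0.27).

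None of these 5 genes was called in the dated pairs with the block, at adjusted p of 0.55 to 0.87 (limma). Their median ratio was 0.16 at date A, 0.14 at date B and -0.18 in the undated pair, against -0.0028, 0.07 and -0.02 over all tested genes. At date A 3 of the 5 were above 0, at date B 4, and in the undated pair 1, which was UBR2. Of all tested genes, 49.7% were above 0 at date A, 62.5% at date B and 47.2% in the undated pair. Levels are not compared between the genes, because the width given for a gene in the table is not a transcript length.

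HEK293T carries extra and uneven chromosomes, and the genes around each member give the local level beside its own change. For UBR7, 17 tested genes start within 1 Mb, and their median ratio was 0.05 at date A, -0.01 at date B and -0.04 in the undated pair. UBR7 was below all 17 at both dates and above 9 of the 17 in the undated pair.

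For FBXO11 and UBR2 most neighbours lay on the same side of 0 as the gene itself in the undated pair. All 10 neighbours of FBXO11 were below 0 there, with a median of -0.38 beside -0.52 for FBXO11, and within 5 Mb 26 of 27 were. At dates A and B the same 10 had medians of 0.10 and -0.08. Of the 33 neighbours of UBR2, 30 were above 0 in the undated pair, with a median of 0.17 beside 0.26 for UBR2, and 23 were above 0 at date A and 23 at date B. The shares of all tested genes above 0, given above for each pair, stand beside these counts.

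UBR1 and UBR3 differed from their surroundings in the undated pair, and UBR4 did at date B. In the undated pair UBR1 lay below 24 of its 27 neighbours and UBR3 below 12 of 14. UBR4 lay within its 13 neighbours in the undated pair, -0.13 beside a median of -0.14, and above 12 of the 13 at date B. No part of local copy number in these values was tested.

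**Figure D2:**
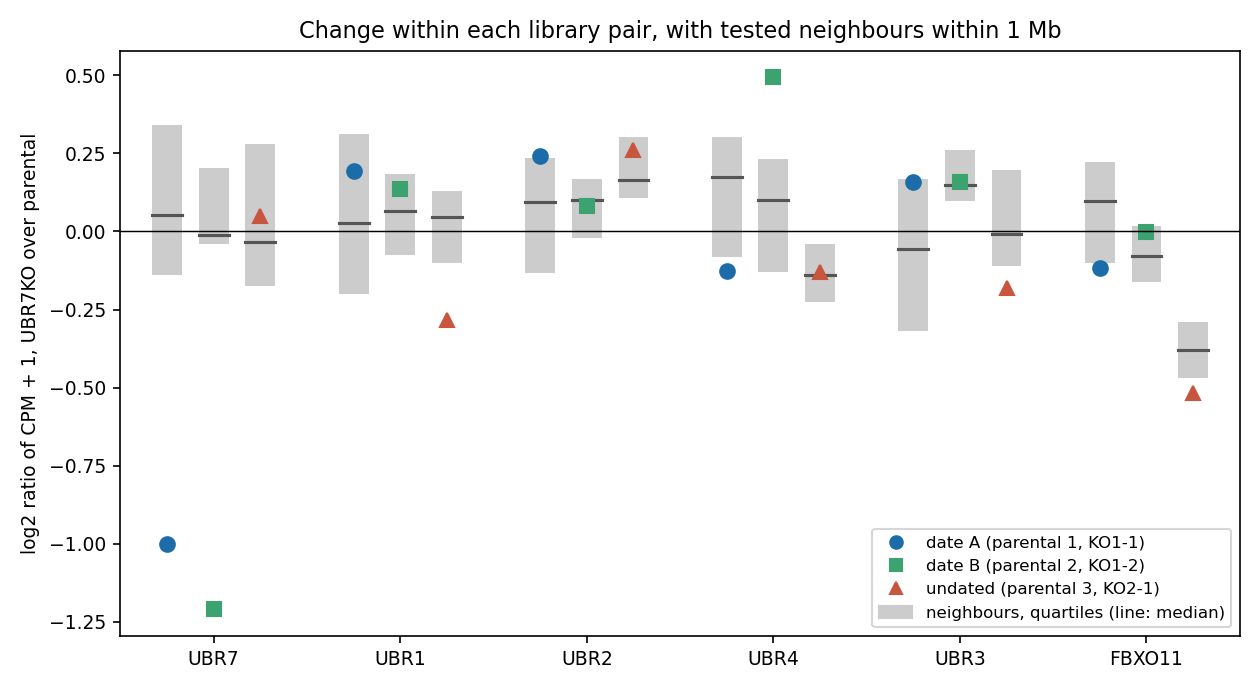
Log2 ratio of CPM + 1, UBR7KO over parental, of each gene in each library pair (points), with the quartiles (grey box) and median (line) of the tested genes that start within 1 Mb. UBR7 lies at -0.999 and -1.21 in the dated pairs, far below its neighbours, and FBXO11 at -0.52 in the undated pair lies near a neighbour median of -0.38.

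The gene that shares the UBR7 promoter region was looked at on its own. C14orf142, now named GON7, a subunit of the tRNA-modifying KEOPS complex, is transcribed away from UBR7 and overlaps it by 39 bases in the table's coordinates, so its counts near the start are uncertain. Its level was 25.9, 16.0 and 12.7 CPM in parental 1, 2 and 3 and 16.1, 13.0 and 16.0 CPM in KO1-1, KO1-2 and KO2-1. The ratios were -0.66 at date A, -0.28 at date B and 0.32 in the undated pair, the same signs as UBR7, but the blocked change of -0.47 ± 0.16 (SE) was not called (limma, adjusted p = 0.11). BTBD7, the nearest tested gene on the other side, was at 37.0 to 47.5 CPM in parental and 46.0 to 49.6 CPM in UBR7KO libraries.

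Genes were ranked by how closely they followed UBR7 across the libraries. Among 9391 tested genes with a mean of at least 10 CPM, the 5 with the highest Pearson r to UBR7 over the 6 libraries were CIPC (0.99), COX10 (0.98), LPCAT3 (0.98), TSHZ1 (0.97) and MTAP (0.97). The points share their library and its depth, and the values are a description only. By Spearman rho 12 genes tied at or above the fifth place, and none of the 5 was among them.

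Of these 5, MTAP, the enzyme that salvages methylthioadenosine, had a change of the size of that of UBR7. Its level was 83.4, 99.5 and 75.3 CPM in parental 1, 2 and 3 and 40.9, 43.2 and 98.1 CPM in KO1-1, KO1-2 and KO2-1. The 2 KO1 libraries stand below every other library. Its ratio was -1.01 at date A, -1.18 at date B and 0.38 in the undated pair, and no test is given for genes chosen by their likeness to UBR7. TSHZ1, a zinc finger transcription factor, ranged from 41.2 to 44.0 CPM in parental libraries and was at 30.7, 30.0 and 45.3 CPM in KO1-1, KO1-2 and KO2-1, and the mean dated ratios of CIPC, COX10 and LPCAT3 were -0.24, -0.37 and -0.18.

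Genes that act with the UBR box proteins were taken from 8 lists of 50 genes, of which 48 had rows and all 48 were tested. None was called by limma over the 6 libraries or in the dated pairs, with or without the block, beside the backgrounds given above. Their median ratio was 0.10 in the dated pairs and -0.09 in the undated pair, against 0.03 and -0.02 over all tested genes. The lists were chosen with results of these data known, and nothing particular to them is read from these counts.

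The next list holds genes for enzymes that act on the residue at the start of a protein. The median of this list of 6 was 0.14 in the dated pairs and -0.10 in the undated pair. METAP2, a methionine aminopeptidase and the member with the most reads, was at 155.8, 378.1 and 287.7 CPM in parental 1, 2 and 3 and at 184.1, 331.1 and 270.1 CPM in KO1-1, KO1-2 and KO2-1. Libraries of the same date resemble each other more than libraries of the same genotype for METAP2.

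Partners of the ligases (the ubiquitin-conjugating enzymes UBE2A and UBE2B, KCMF1 and the 3 calmodulin genes) had medians of 0.12 and -0.13 in the dated and undated pairs. CALM3, the calmodulin gene with the most reads, was at 205.1 to 316.4 CPM in parental libraries and 269.2, 286.8 and 404.3 CPM in KO1-1, KO1-2 and KO2-1, with overlap between the groups. Of the 48 genes 4 lie on chromosome 2, as FBXO11 and UBR3 do, and were looked at after their values were seen. In the undated pair KCMF1, a ubiquitin ligase that works with UBR4, had a ratio of -0.68, the ubiquitin gene RPS27A -0.44, CALM2 -0.27 and the histone acetyltransferase gene HAT1 -0.05. HAT1 starts at chr2:172778958, near UBR3, and the others start from chr2:47403740 to chr2:85198216. The 14 neighbours of UBR3 within 1 Mb had a median of -0.0068 in the undated pair. None of the 4 was called in the undated pair against the dated pairs (limma, adjusted p of 0.14 to 0.67).

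The rest of the SCF ligase and the reported substrates of FBXO11 gave 8 tested genes. The SCF list had medians of 0.12 and 0.07, and CAND1, which exchanges F-box proteins on the SCF scaffold, was at 212.7 to 273.1 CPM in parental and 228.7 to 314.6 CPM in UBR7KO libraries. Of the 5 substrate genes SNAI1 and PRDM1 had no row. DTL, a replication-coupled ubiquitin ligase adaptor degraded through FBXO11, was at 162.3, 110.4 and 106.4 CPM in parental 1, 2 and 3 and at 187.8, 144.4 and 115.8 CPM in KO1-1, KO1-2 and KO2-1, higher in the UBR7KO library of all 3 pairs while the groups overlap.

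Among 5 genes whose proteins are reported N-degron or UBR substrates, medians were 0.0040 and -0.22. APEX1 was at 84.9, 98.5 and 208.1 CPM in parental 1, 2 and 3 and at 87.1, 96.5 and 208.7 CPM in KO1-1, KO1-2 and KO2-1, and the undated libraries stand apart in both genotypes. RGS4, a regulator of G-protein signalling degraded by the N-degron route, was called in the undated pair against the dated pairs (-1.49 ± 0.37, SE, limma, adjusted p = 0.016), the 1 call of limma among the 48 genes beside a background of 5.03%. edgeR's quasi-likelihood test also called RGS16 of the same family, in the other direction (1.07, adjusted p = 0.027; limma 0.94, adjusted p = 0.054). RGS4 is scarce, at 0.58, 1.49 and 3.43 CPM in parental 1, 2 and 3 and 0.83, 2.16 and 0.91 CPM in KO1-1, KO1-2 and KO2-1.

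The remaining lists concern histones and ubiquitin itself. Genes for H2B ubiquitination and the PAF complex had medians of 0.12 and -0.09, the partners of UBR7 in H3 handling -0.01 and -0.08, and the ubiquitin genes 0.13 and -0.06. USP22, which removes ubiquitin from H2B, was at 341.4, 235.4 and 380.5 CPM in parental 1, 2 and 3 and 404.5, 281.9 and 300.6 CPM in KO1-1, KO1-2 and KO2-1. MCM2, a subunit of the replicative helicase that binds H3, was at 302.5 to 394.6 CPM in parental and 289.2 to 383.4 CPM in UBR7KO libraries. UBB, a polyubiquitin gene, was at 508.6 to 735.3 CPM and 518.1 to 761.5 CPM.

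**Figure D3:**
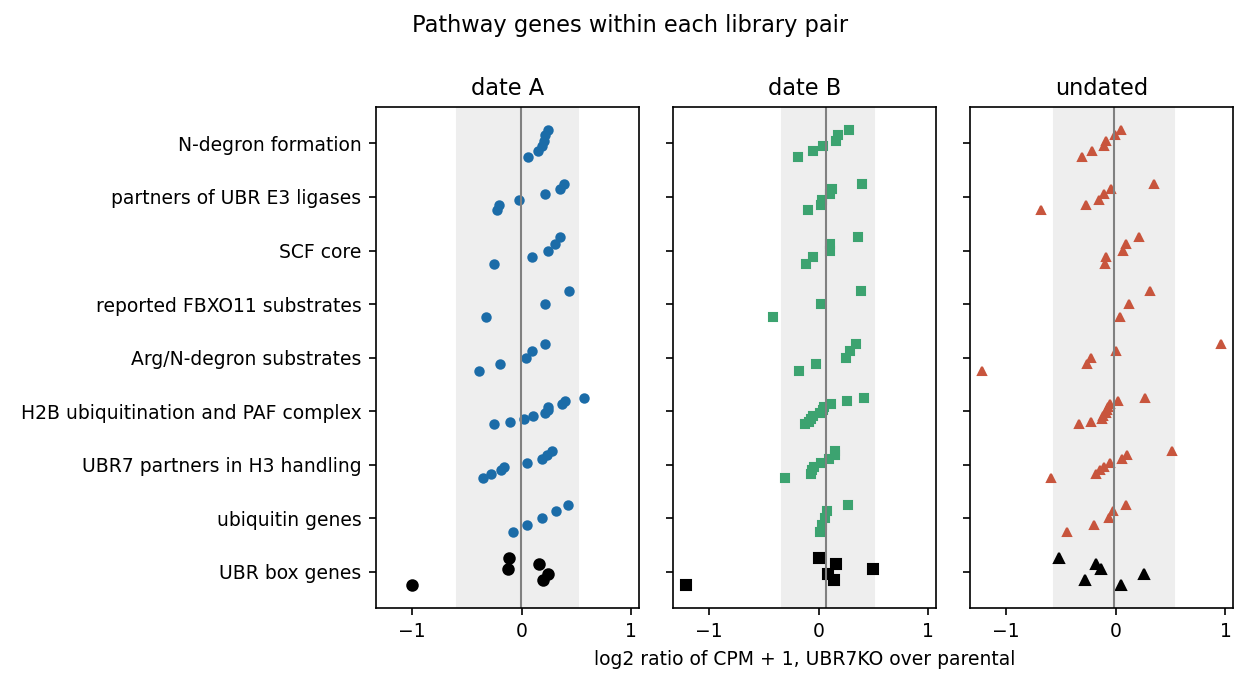
Log2 ratio of CPM + 1, UBR7KO over parental, of the 48 pathway genes by list (coloured) and of the 6 UBR box genes (black, lowest row) in each library pair, with the median (grey line) and the range from the 5th to the 95th percentile (shaded) of all tested genes. UBR7 is the point at -0.999 and -1.21 in the dated pairs, and the other points there lie near the shaded range.

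Open chromatin at the 6 gene starts was read from the peaks the authors called in each ATAC library. Here and below, a start is the one in the authors' annotation, not the RefSeq start of the printed stretches. Within 1 kb of the start, UBR7, UBR2, UBR4 and FBXO11 had a peak in all 4 libraries, which 52.9% of the 13697 tested gene starts also had. Some of these peaks are weak. The lowest -log10 q was 0.874 for UBR7 and 0.614 for UBR2, both in ATAC parental 1. It was 0.835 for UBR4 in ATAC parental 2 and 0.843 for FBXO11 in ATAC UBR7KO 1. With q under 0.05 none of these genes would keep a peak in all 4 libraries. UBR1 had one in ATAC parental 1 and ATAC UBR7KO 2, and UBR3 in ATAC parental 2 and ATAC UBR7KO 2. The lists are unequal in length, with 10507 and 38529 peaks in ATAC parental 1 and 2 and 15310 and 45920 in ATAC UBR7KO 1 and 2, and the share of tested starts with a peak was 55.5%, 80.8%, 70.5% and 83.3%. A peak missing from a short list therefore says little about the gene. UBR1, however, had a peak in the short list of ATAC parental 1 and none in the long list of ATAC parental 2. The code of KO2-1 also names the ATAC UBR7KO libraries, so these appear to come from the second line, which no label states.

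At UBR7 the peak covered the start in every ATAC library. It ran from 17 bases before the start to 334 after it in ATAC parental 1, from -138 to 450 in parental 2, from -202 to 352 in UBR7KO 1 and from -126 to 436 in UBR7KO 2. The -log10 q that the authors' caller gave these peaks was 0.874, 1.98, 2.05 and 3.44, values that are ranked only within a list, where 66.7%, 32.8%, 21.5% and 26.9% of peaks were higher. Further peaks lay inside the gene about 2.7 kb after the start in ATAC parental 2 and UBR7KO 2, and near 5.0 kb in UBR7KO 2 only. The ATAC UBR7KO libraries appear to come from the line of KO2-1, where UBR7 RNA was at 64.5 CPM. None is labelled as KO1, so these peaks do not show the UBR7 start in a line known to have lower UBR7 RNA.

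Among the other members the peaks covered the start of UBR2 in all 4 libraries and that of UBR4 in 3 of 4, while in ATAC parental 1 the UBR4 peak ended 15 bases before it. At UBR2 9.15% of peaks of ATAC UBR7KO 2 and 4.67% of those of UBR7KO 1 had a higher -log10 q, against 91.3% and 65.6% in ATAC parental 1 and 2. At UBR4 these shares were 7.13% and 23.1% in ATAC UBR7KO 1 and 2 and 53.9% and 75.4% in ATAC parental 1 and 2. Ranks from lists of different lengths cannot show whether these peaks changed. At FBXO11 a short peak lay at 949 to 1041 in ATAC UBR7KO 2. Its other peaks lay upstream of the start in the authors' annotation, and no peak covered that start. They ran from -984 to -523 in ATAC parental 1 and from -1328 to -42 in parental 2. The RefSeq start behind the printed FBXO11 stretch was not placed in these coordinates, so the peaks may lie otherwise relative to it. With a -log10 q of at least 5, no member kept a peak in all 4 libraries.

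**Figure D4:**
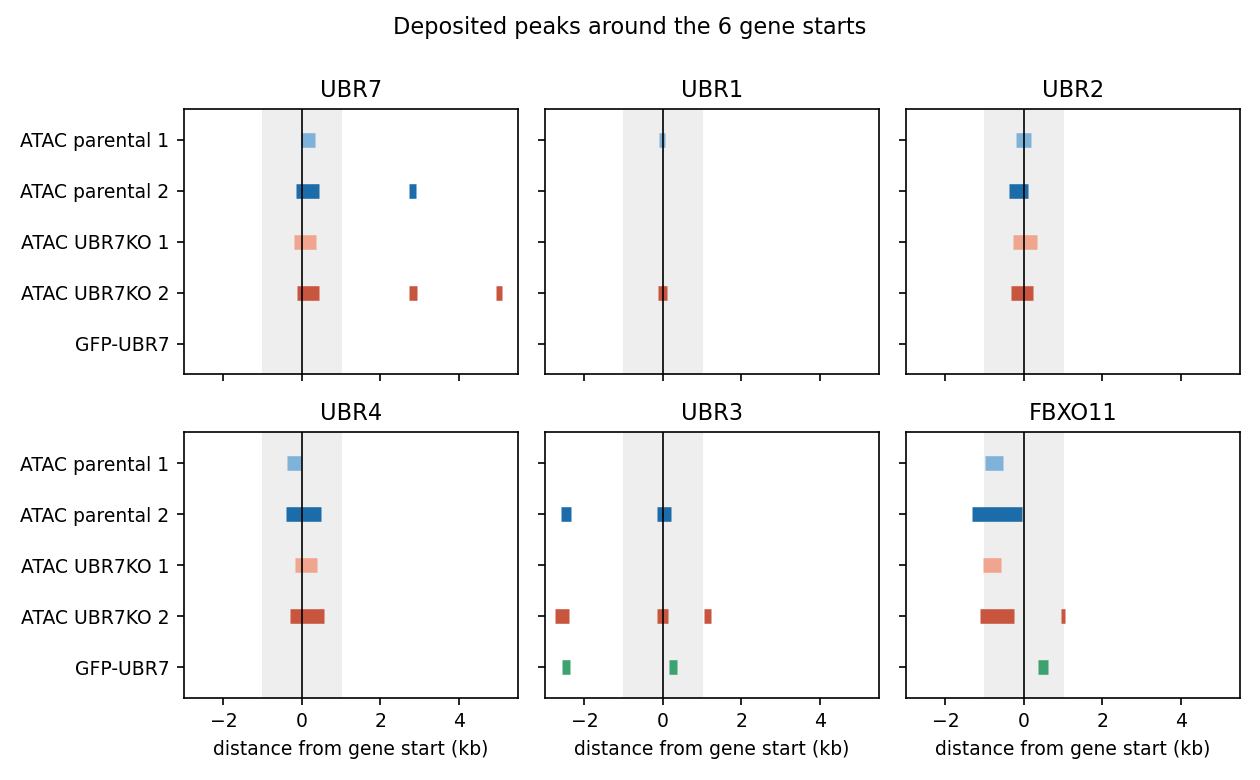
Position of the authors' ATAC peaks (by library) and GFP-UBR7 peaks relative to the start of each gene in the authors' annotation (kb, plus values run into the gene), with the window of 1 kb either side shaded. The peaks of UBR7 and UBR2 cover the start in all 4 ATAC libraries, those of FBXO11 lie before it apart from 1 short peak, and GFP-UBR7 peaks appear at UBR3 and FBXO11.

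GFP-UBR7 peaks, from 1 immunoprecipitation with no replicate, lay within 1 kb of the start of 2 of the 6 members, against 24.9% of all tested gene starts. At UBR3 a peak ran from 168 to 369 bases after the start with a score of 74.0, and a second from -2573 to -2371 with a score of 76.7. The upstream one lies inside an ATAC peak of parental 2 (-2605 to -2341) and overlaps one of UBR7KO 2 (-2737 to -2396). At FBXO11 the peak ran from 365 to 609 bases after the start with a score of 73.7, and it overlaps none of the ATAC peaks at this gene. These scores lie above the median of the 5895 peaks, 64.7, in a list whose lowest score is 50.0 and highest 1227, and the authors' scale is not stated.

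The other 4 members had no GFP-UBR7 peak near the start or in the gene. The nearest peak was 41.3 kb from the start of UBR4, 149.5 kb from UBR2, 557.2 kb from UBR1 and 581.8 kb from UBR7 itself. UBR3 and FBXO11, the 2 members with such a peak, were not called in any of the RNA comparisons. Of all tested genes, limma called 0.00% over the 6 libraries and 3.58% in the dated pairs with the block. With 2 genes beside such shares, nothing about GFP-UBR7 peaks and RNA change is read from this. In a clustering of RefSeq gene starts that the authors deposited with the ATAC data, 2 members were found: UBR4 in cluster 2, with 18.1% of 13176 listed starts, and FBXO11 in cluster 4, with 46.7%.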

How the data were processed

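The RNA values are CPM that the authors deposited for 14177 genes in 6 libraries; how these genes were chosen is not given in the sources used here. Per the submitters' processing notes, TopHat2 2.1.0, HTSeq 0.6.1 and edgeR were among the tools, with MACS2 for peaks. The deposited log2 fold changes and p-values are quoted as the authors' own. ATAC peaks carry a −log10 q and GFP-UBR7 peaks a score, per the file headers and layout that the authors deposited. CPM were whole multiples of 1 read in every library (100% within 1e-06), which gave the counted reads.

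Genes above 1 CPM in at least 3 libraries were tested with limma 3.58.1 (trend, robust) on log2(CPM + 1), with Benjamini-Hochberg adjustment and calls at 0.05. edgeR 4.0.16 and DESeq2 1.42.0 on recovered reads, other pseudocounts, filters and scalings, single libraries left out and the date block were alternatives. The block with edgeR was chosen after seeing the data. The scripts were tested on simulated data. Same-pair libraries deviated together from their group means (r = 0.76, 0.74 and 0.63 over 13697 genes), and all other parental and UBR7KO combinations were negative. Deviations from a group mean cancel within each genotype, so the negative values follow in part from the centring. For the same reason the deviations of the undated libraries are fixed by those of the dated ones. The r of 0.63 is therefore no separate evidence for the undated pair. The pairing at dates A and B comes from the labels. Named genes were the 6 members, the member of each list with the highest mean CPM where none was called, the 5 genes most correlated with UBR7 and its nearest tested neighbours. The members and lists were chosen with earlier results of these data known.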

Additional observations from a re-analysis of the deposited data

Results flagged for a closer look

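The change of UBR7 in the pair of the second knockout line stood apart from that in the pairs of the first, which is why it is listed here. The undated pair (the library labelled KO2-1 against parental 3) minus the dated pairs (KO1) gave 1.15 on the log2 scale (SE 0.22, limma with the pair as a block, adjusted p = 0.00176). That fit has 1 residual degree of freedom, from the dated pairs, and the KO2 side is 1 library against 1 parental library, so line, pair and library cannot be told apart. UBR7 was lower in 2 of 2 KO1 libraries and not lower in the 1 KO2 library. Over 5 other settings the difference ranged from 1.05 to 1.23.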

How the results depend on the processing

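The UBR7 change kept its sign in every setting run. Over the 6 libraries it ranged from -1.13 (without KO2-1) to -0.50 with 1 library left out, and in the dated pairs from -1.19 to -1.02. In the dated pairs it passed the threshold only with the replicate block (-1.10, adjusted p = 1.556e-05) and with the replicate block in edgeR's quasi-likelihood test (-1.17, adjusted p = 1.299e-05). Over the 6 libraries it did not pass with the block either (-0.72, adjusted p = 0.81; in edgeR -0.75, adjusted p = 0.87). Genes called over the 6 libraries numbered 0 except with DESeq2 (7), and 0 without any 1 library. In the dated pairs 0 became 24 with DESeq2, 491 with the replicate block, 482 with the block in edgeR, and 1 to 20 with 1 library left out (19 without parental 1, 20 without parental 2, 2 without KO1-1 and 1 without KO1-2). The block changed no other member's call. Members with an ATAC peak in all 4 libraries fell from 4 to 2 when the peak had to cover the start and to 0 at a -log10 q of at least 5, and those with a GFP-UBR7 peak from 2 to 0 at the start itself and to 3 within 50 kb. Of the 5 genes ranked by Pearson r, 0 were shared with Spearman rho. Among the other members, signs changed in at least 1 setting for FBXO11, UBR1, UBR3 and UBR4 over the 6 libraries and for FBXO11 and UBR4 in the dated pairs, and no call did. The cause of these differences was not tested. The difference between the lines could not be refitted with a library left out. Read depth limits RGS4 and other scarce genes most.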
